A study of Rattus norvegicus with 3 samples.

Results

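Matrix metalloproteinases and the proteins that hold them in check were examined in kidney RNA of spontaneously hypertensive rats. The group comprises the proteases Mmp2, Mmp7, Mmp9, Mmp11, Mmp14 and Adamts1 and the inhibitors Timp1, Timp2, Timp3 and Reck. Its members were chosen by gene name, with earlier results of these data known. All 10 are on the array, as 11 probes on 47 spots of 17933 named genes, 30367 probes and 42877 spots in all. The rats were males on a Wistar background, aged 8 to 10 weeks and weighing 280 to 330 g, in groups of 10. Control rats received water by mouth, about 3 mL, for 28 days. The low-dose group received HBMP, a protein hydrolysate of blue mussel (Mytilus edulis), at 10 mg/kg/day, and the high-dose group received it at 20 mg/kg/day, both for the same time. All 3 groups share the hypertensive strain, and no normotensive group was analysed here. Kidney RNA of 4 rats of each group was mixed in equal amounts and put on 1 single-colour array, so the data hold 1 pool per group and nothing of the difference between rats.

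Matrix metalloproteinases are zinc enzymes that cut collagens, elastin, fibronectin and other proteins of the extracellular matrix. They are made as inactive precursors, which plasmin, furin-like convertases or other metalloproteinases activate. Mmp14 sits in the cell membrane, where it activates Mmp2 in a complex with Timp2. The TIMP proteins bind the active site of these enzymes, and Reck holds several of them in check at the cell surface. In the kidney this balance is best known from the turnover of basement membranes and from fibrosis.

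Promoter sequences are shown for Timp1 and Adamts1, which counted as at least 2-fold higher at the low dose than in control. Mmp7, above background at the low dose alone, and Timp3, which was not higher there, are shown as well. The sequences come from a RefSeq table of the rat assembly GRCr8 that matched 7 of the 10 members by symbol. Mmp2, Mmp9 and Mmp14 were not among them. Each is the 150 bases before the annotated start of transcription, 5′ to 3′ on the gene's own strand. They lie at chr8:13132893-13133042 (plus strand) for Mmp7, chrX:3771123-3771272 (minus strand) for Timp1, chr11:38427385-38427534 (minus strand) for Adamts1 and chr7:19459559-19459708 (minus strand) for Timp3. The Timp1 window lies inside the span of the gene in the RefSeq gene table, since a longer transcript model begins further upstream. Capitals mark matches, on either strand, to the AP-1 motif, to a variant of it, to the TATA box and to the GC box, whose letters are spelled out after the sequences.
Mmp7: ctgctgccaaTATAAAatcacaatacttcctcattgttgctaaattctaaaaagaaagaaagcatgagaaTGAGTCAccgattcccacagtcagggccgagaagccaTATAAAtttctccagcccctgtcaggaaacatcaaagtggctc
Timp1: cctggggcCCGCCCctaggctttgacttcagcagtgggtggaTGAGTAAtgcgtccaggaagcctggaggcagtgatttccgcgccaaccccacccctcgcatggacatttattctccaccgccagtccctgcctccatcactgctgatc
Adamts1: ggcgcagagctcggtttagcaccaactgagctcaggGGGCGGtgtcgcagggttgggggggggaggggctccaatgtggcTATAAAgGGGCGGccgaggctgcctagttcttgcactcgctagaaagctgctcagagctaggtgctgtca
Timp3: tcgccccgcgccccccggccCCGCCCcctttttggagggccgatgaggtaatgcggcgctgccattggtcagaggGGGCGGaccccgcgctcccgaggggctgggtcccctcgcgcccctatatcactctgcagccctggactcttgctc

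Mmp7 held TGAGTCA, a form of the AP-1 motif, at 80 bases before the start and the TATA box TATAAA at 43 and 140 bases. Timp1 held the AP-1 variant TGAGTAA at 108 bases and a GC box at 142 bases, read there as CCGCCC since it lies on the other strand. Adamts1 held TATAAA at 70 bases and GC boxes at 63 and 114 bases. Timp3 held only GC boxes, at 75, 130 and 158 bases, the last of them outside the printed stretch. Of the 33469 rat promoters in the table, 6.3% held TGANTCA within the 250 bases before the start, 2.4% TGAGTAA, 12.9% the TATA box and 30.5% the GC box GGGCGG. The motifs do not overlap one another. A match describes the letters and does not show that a factor binds there.

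The control array had 50.4% of its 30367 probes above background, the low-dose array 52.0% and the high-dose array 54.7%. A probe counted as above background when the signal-to-noise ratio was at least 3 in 50% or more of its spots. Signals are net scanner units scaled to an equal 75th percentile on each array, and differences are on the log2 scale, where 1 is 2-fold. A gene counted as higher or lower when it stood above background on both arrays and differed by at least 2-fold, which is a rule of size and not a test. Where a probe was printed on 10 spots, 95% of single spots lay within 0.30 of that probe's median difference between low dose and control, within 0.30 between high dose and control and within 0.23 between the doses. These limits cover the spread between spots of an array and not that between animals, and with 3 arrays in all the number of arrays limits the precision. The arrays share 1 slide, and a group's place on it cannot be told apart from its treatment. The tissue label was checked against kidney markers: 8 of 8 proximal tubule genes, 4 of 4 thick ascending limb genes and 5 of 5 podocyte genes stood above background on every array.

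The comparison of the low dose with control asked how kidneys of treated rats differed from those given water. Of the 8 members measured above background on both, 4 were at least 2-fold higher and 0 lower by as much. These were Mmp2, a gelatinase that degrades denatured and basement membrane collagen, at a log2 difference of 2.34, the inhibitor Timp1 at 1.77, the membrane protease Mmp14 at 1.13 and Adamts1 at 1.02. Over the 9730 named genes measured in this way, 2.50% passed 2-fold upwards and 0.668% downwards. The members' median difference was 0.85, with 7 above 0 and 1 below, beside a median of -0.11 over all genes. Since earlier results were known when the members were chosen, their values stand beside those of all genes and are not a test. Mmp7 stood far above background on the low-dose array alone, and Mmp9 was above background on no array, so neither entered these counts. In RNA from whole kidney, a change in the number of cells of a type and a change in RNA per cell cannot be told apart.

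**Figure D1:**
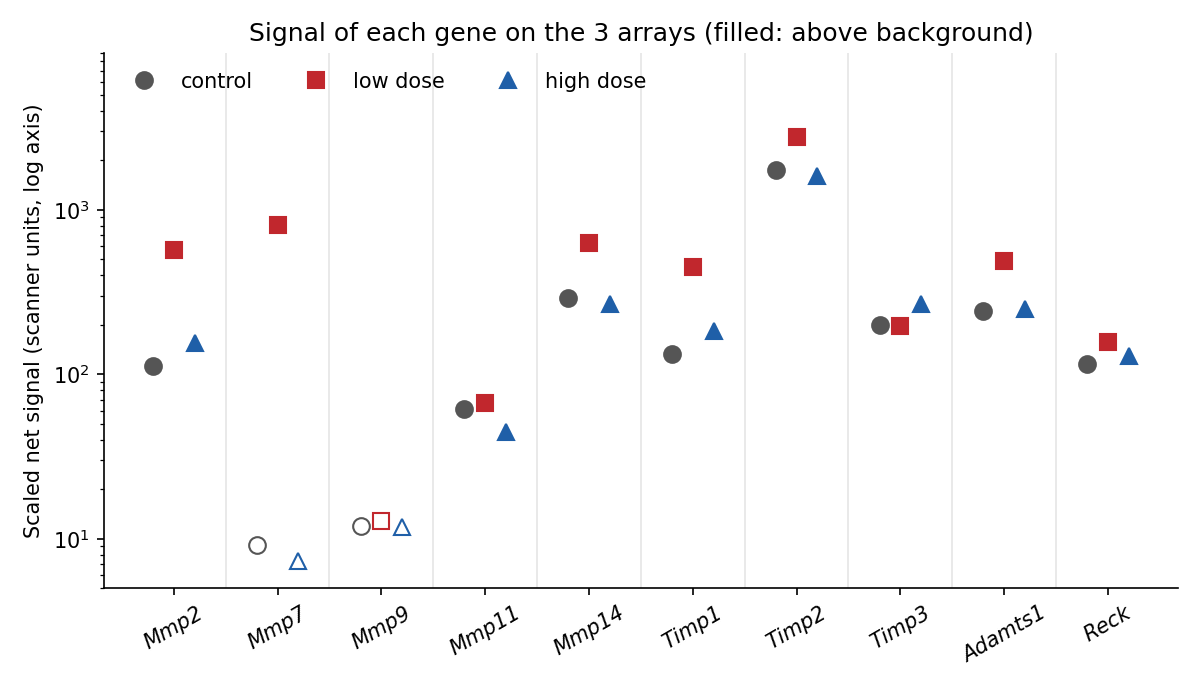
Scaled net signal of the 10 genes (scanner units, log axis) on the control (circle), low-dose (square) and high-dose (triangle) arrays, 1 array of 1 pool each; filled symbols stood above background. Among genes above background, the low-dose array was highest for all but Timp3, with Mmp7 at 809 against 9.13 in control and 7.30 at the high dose; levels of different genes cannot be set against each other.

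Among the proteases, Mmp2 had the largest difference of those measured on all arrays. Its signal was 113 in control, 573 at the low dose and 155 at the high dose. The low-dose array was therefore 5.07-fold above control, and the high-dose array 1.37-fold above it. A second Mmp2 probe was dimmer and stood above background at the low dose only, with signals of 16.0, 69.1 and 22.8 in the same order. On both probes the low-dose array was the highest, and on the brighter one control was the lowest. Each Mmp2 probe has a single spot, so no spread between spots of its own was available.

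Mmp14, the membrane-bound activator of Mmp2, was printed on 10 spots. In control these ranged from 183 to 337, with a median of 285. On the low-dose array they ranged from 571 to 685, with a median of 650. On the high-dose array they ranged from 237 to 296, with a median of 270. The low-dose spots thus overlapped neither of the other arrays, while control and high-dose spots overlapped. Over all probes on 10 spots above background, the median log2 SD between spots was 0.24 in control, 0.18 at the low dose and 0.19 at the high dose. Here and for Timp1 and Adamts1, the share of all such probes whose spots separate was not counted. Separation therefore does not set these members apart. Taken position by position, low dose stood above control in 10 of 10 spots, by 1.01 to 1.68, and the high dose stood below the low dose in all of them, by a log2 difference of -1.37 to -1.12. The lowest control spot lay in a corner of that array where signal was weak, and without that corner the low-dose difference from control still passed 2-fold.

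Mmp7, or matrilysin, is a small secreted protease that injured tubular epithelium is known to make. Its signal was 9.13 in control, 809 at the low dose and 7.30 at the high dose, with only the second above background. The low-dose signal was 59.0-fold the lowest signal above background in control (13.7) and 98.5-fold that on the high-dose array (8.21). Brighter probes could still fall below background, such as Krt5 at 29.7 in control, so neither fold is a lower limit. With normexp, a background model that raises low signals, low dose exceeded control and high dose by log2 differences of 3.59 and 3.92. In the authors' deposited table these were 6.79 and 7.11. All of this rests on a single spot. On the low-dose array that spot had a pixel mean of 882 and a pixel median of 867, with an SD of 123 over 80 pixels, a signal-to-noise ratio of 120 and 0% saturated pixels. The 8 spots around it ranged from 8 to 467 net units in control, 2 to 413 at the low dose and 9 to 377 at the high dose, so the neighbourhood was not brighter at the low dose. In a pool, a high level in 1 of the 4 rats and a moderate level in all cannot be told apart.

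Mmp11, or stromelysin-3, is activated inside the cell by furin and is known from stromal cells. Its single spot gave 61.6 in control, 67.2 at the low dose and 44.7 at the high dose. Low dose and control differed by 0.13, within the spread of single spots. The high dose was lower than control by a log2 difference of -0.46, within the 0.50 that bounds 95% of spots below 64 units, and differed from the low dose by -0.59, beyond the corresponding 0.41. None of these passed 2-fold.

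Mmp9, the gelatinase of neutrophils and other inflammatory cells, was not above background on any array. Its 10 spots ranged from 4.57 to 26.3 in control, 7.68 to 20.2 at the low dose and 7.30 to 14.6 at the high dose. The 3 ranges overlapped, and no fold is given for signals below background.

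**Figure D2:**
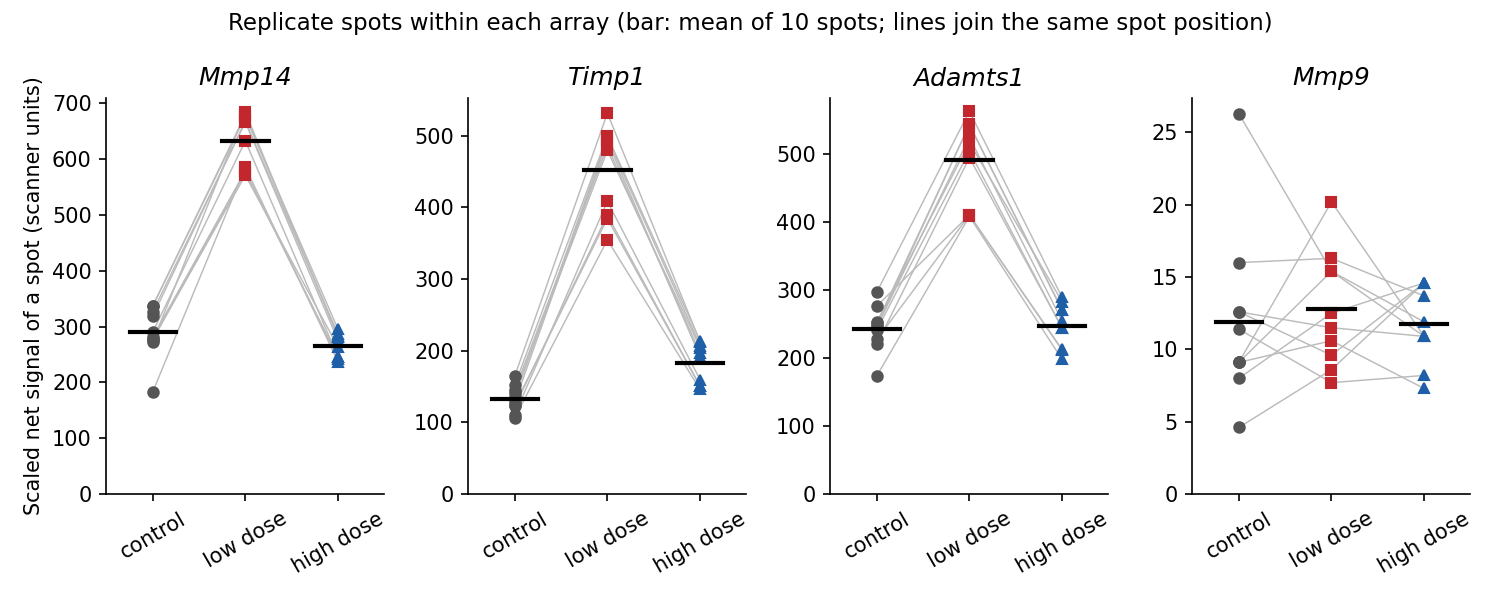
Scaled net signal (scanner units, axis from 0) of each of the 10 spots of Mmp14, Timp1, Adamts1 and Mmp9 on the 3 arrays; thin lines join the same spot position and black bars are means over spots, which are repeats within an array and not animals. For Mmp14, Timp1 and Adamts1 every low-dose spot lies above every control and high-dose spot, while for Mmp9 the spots of all arrays overlap. The share of all probes on 10 spots with such separation was not counted, so it does not set these genes apart.

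Among the inhibitors, Timp1, a secreted inhibitor that is often raised in fibrotic kidney, had the largest difference. Its 10 spots ranged from 106 to 164 in control, with a median of 131. At the low dose they ranged from 354 to 531, with a median of 482, and at the high dose from 146 to 213, with a median of 194. The low-dose spots overlapped neither other array, and the mean stood 3.40-fold above control. The control and high-dose ranges overlapped, yet the high dose was the higher in 10 of 10 positions, by 0.27 to 0.62. Timp1 thus had the order low dose, high dose, control, as Mmp2 did.

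Timp2, which both inhibits Mmp2 and takes part in its activation by Mmp14, gave 1740 in control, 2780 at the low dose and 1600 at the high dose from 1 spot. The low dose stood above control by 0.68 and above the high dose, which was lower by a log2 difference of -0.80; neither reached 2-fold. High dose and control differed by -0.12, within the 0.22 that bounds 95% of single spots of that brightness.

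Timp3 binds to the matrix and inhibits ADAM and ADAMTS proteases as well. It gave 200 in control, 196 at the low dose and 266 at the high dose. It was the one member above background whose low-dose signal did not exceed control, at a log2 difference of -0.03. The high dose stood above both, by 0.41 over control and 0.44 over the low dose, beyond the spread of single spots but short of 2-fold.

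Reck, the membrane-anchored inhibitor, gave 116 in control, 157 at the low dose and 130 at the high dose. Low dose exceeded control by 0.43, beyond the 0.28 of single spots of that brightness, and the high dose exceeded control by 0.15, within the corresponding 0.27. The single Reck spot had a signal-to-noise ratio of 9.70 in control and 5.39 at the low dose, so the bound of 0.28 may understate its error. With normexp low dose exceeded control by 0.29. No difference of Reck reached 2-fold.

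Adamts1, a secreted protease of the related ADAMTS family, cuts the proteoglycans aggrecan and versican. Its 10 spots ranged from 174 to 297 in control, with a median of 246. At the low dose they ranged from 408 to 563, with a median of 510, and at the high dose from 198 to 289, with a median of 249. Low-dose spots overlapped neither other array, and control and high dose were nearly equal, with a difference of 0.03. The low-dose difference from control lay at the 2-fold line: it was 1.02, but 0.90 with normexp and 0.81 in the authors' deposited table. The difference of the high dose from the low dose, -0.99, lay just short of that line and was -1.02 in the authors' deposited table.

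Between the high-dose and control pools, none of the 8 members above background passed 2-fold, 0 upwards and 0 downwards. Of the 9887 named genes 0.850% and 0.152% did, so a count of 0 lies near the share over all genes and does not set the members apart. Mmp2 and Timp1 stood highest, both at 0.46, followed by Timp3 at 0.41. Mmp11 stood lowest, at -0.46. The members' median was 0.09, with 5 above 0 and 3 below, beside -0.04 over all genes. This comparison and that of the low dose share the control array, so their values stand side by side and are not independent.

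Between the doses, 3 of the 8 members lay at least 2-fold lower on the high-dose than on the low-dose array, and 0 passed 2-fold upwards. Over the 10133 named genes, 1.48% passed 2-fold downwards and 0.464% upwards. The 3 members were Mmp2 at -1.89, Timp1 at -1.30 and Mmp14 at -1.25. The members' median was -0.89, with 7 below 0 and only Timp3 above, beside 0.04 over all genes. This comparison shares the low-dose array with that of the low dose against control, so it restates in part that the low-dose array was the high one.

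**Figure D3:**
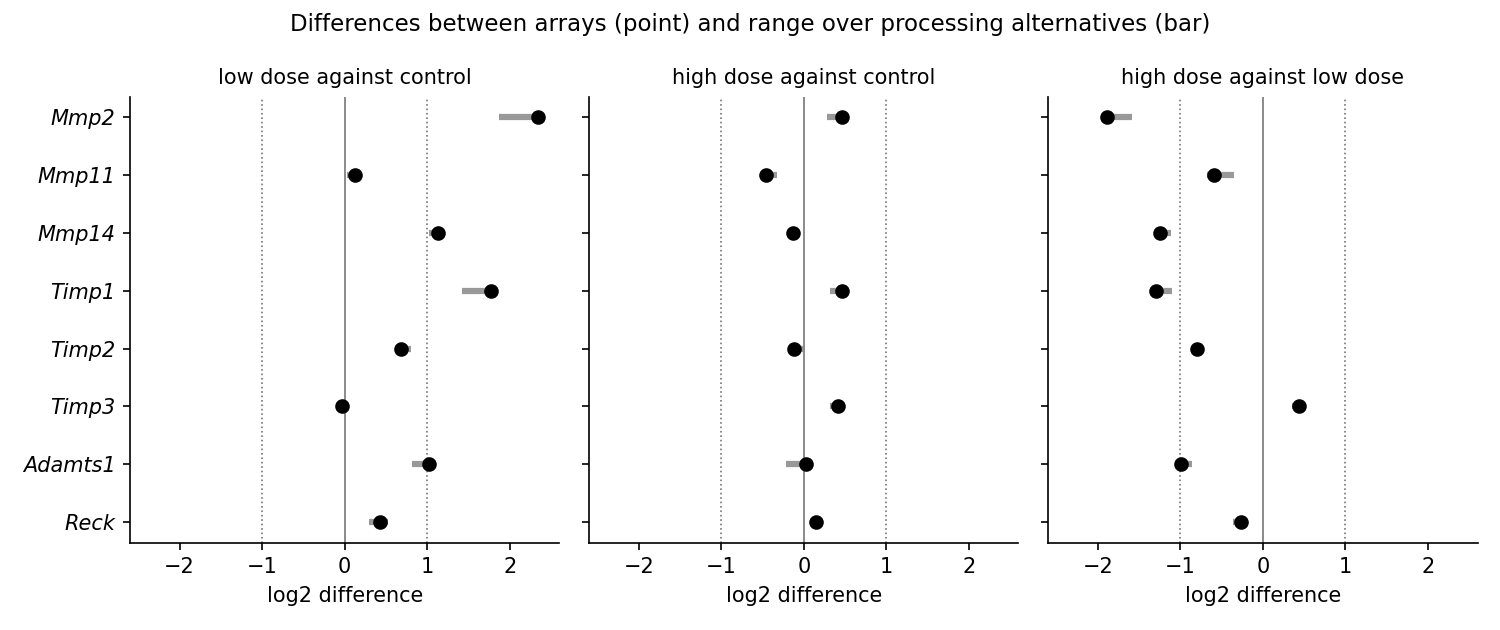
Log2 difference of the 8 members above background on all arrays in each comparison (points), with the lowest to highest value over 9 processing alternatives (grey bars); dotted lines mark 2-fold. Low dose against control reaches from -0.03 for Timp3 to 2.34 for Mmp2, while no member passes 2-fold at the high dose against control.

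Of 17 other matrix metalloproteinases on the array, 13 stood above background on no array. Among them were the collagenases Mmp1, Mmp8 and Mmp13, the stromelysins Mmp3 and Mmp10 and the macrophage elastase Mmp12. The other 4 were Mmp15, Mmp17, Mmp23 and Mmp24, with a median difference of 0.20 at the low dose and -0.21 at the high dose from control, and 0 of them reached 2-fold. Mmp15, a membrane-type enzyme like Mmp14, gave 1540 in control, 2390 at the low dose and 2540 at the high dose, so it was the higher on both treated arrays.

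Of 22 ADAM and ADAMTS proteases on the array other than Adamts1, 7 stood above background on both the control and low-dose arrays, and 2 of these were at least 2-fold higher at the low dose. Adam19 was higher by 1.34, from 22.8 to 57.6, and Adamts7, which cuts cartilage matrix proteins, by 1.01. With normexp they stood at 0.34 and 0.65, short of 2-fold. A second Adam19 probe, not above background in control, gave 24.0 there and 19.2 at the low dose, so the Adam19 probes disagree. The median over the 7 was 0.20 at the low dose and 0.18 at the high dose, where 0 reached 2-fold.

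Other protease inhibitors differed mainly in Slpi and A2m. Slpi, the secretory leukocyte protease inhibitor, was 60.5 in control, 253 at the low dose and 76.6 at the high dose. A2m, alpha-2-macroglobulin, which traps proteases of most classes, was not above background in control, at 7.99, and gave 351 at the low dose and 24.6 at the high dose. At the low dose it was 25.6-fold the lowest signal above background in control, and a second probe gave 5.71, 400 and 10.0. Timp4, the fourth TIMP, showed little difference, at 0.06 and 0.19 from control. Of 9 such inhibitors above background on both arrays 1 was at least 2-fold higher at the low dose, with a median of 0.16. Spock2, a proteoglycan, was higher than control at the high dose by 1.02, or 0.71 with normexp, with a median of 0.00 over the 9.

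The plasminogen system, whose product plasmin activates several metalloproteinase precursors, was mixed. Of 8 genes above background, 2 were at least 2-fold higher at the low dose and 0 lower, with a median of 0.18. These were Serpine2, an inhibitor of plasminogen activators, at 1.79, and Anxa2, a plasminogen receptor, at 1.14. The tissue activator Plat was higher by 0.80, while the urokinase gene Plau stood below control at -0.42. For the high dose 0 of 8 reached 2-fold, and the median was 0.16.

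Few genes that activate these proteases or drive their transcription differed by 2-fold. Of 16 above background, 1 was at least 2-fold higher at the low dose and 0 were lower, with a median of 0.23. It was the cytokine Il1b, at 1.46 at the low dose and 1.41 at the high dose, but 0.62 and 0.56 with normexp. The convertase Furin stood at 0.21 and -0.21 from control, and Bsg, the surface protein that induces metalloproteinases, at 0.25 and 0.75. Of the AP-1 genes above background on all arrays, Jun, Junb and Jund were higher than control by 0.53, 0.63 and 0.38 at the low dose and by 0.60, 0.58 and 0.51 at the high dose. Fosb was lower, at -0.35 and -0.88. All 4 stayed short of 2-fold and were named after their values were seen. Fos was above background at the high dose alone, at 2.13-fold the lowest signal above background in control. Egr1, an early response factor, was higher than control by 1.04 at the high dose, or 0.79 with normexp. The convertase Pcsk6 was lower at the low dose, at 136 against 255 in control and 389 at the high dose, and higher at the high dose than at the low dose by 1.52. A second Pcsk6 probe gave 33.1 in control, 26.9 at the low dose and 40.1 at the high dose. It had the same order, but its difference between the doses was 0.58, short of 2-fold. The median at the high dose was 0.30 over 17 genes.

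Substrates of these enzymes stood higher at the low dose as a group, with 16 of 16 above control and 10 at least 2-fold higher, at a median of 1.24. Col1a1, a chain of type I collagen, went from 202 in control to 1880 at the low dose and 278 at the high dose. A second Col1a1 probe gave 113, 512 and 168. Differences from control at the low dose were 3.21 for Col1a1, 2.21 for elastin (Eln), 2.15 for Col3a1, 2.11 for osteopontin (Spp1) and 2.03 for fibronectin (Fn1). Second probes of Eln and Fn1 stood above background on no array. Among other second probes above background in control and at the low dose, those of Col5a2 and Bgn gave 1.18 and 0.59, where the probes counted gave 1.60 and 1.08. That of Col4a1 was lower at the low dose, at -0.20, where the probe counted gave 0.87, so the count of 16 holds for the probes counted. Vcan, the versican that Adamts1 cuts, was above background at the low dose alone, at 69.1, or 5.05-fold the lowest signal above background in control. None of the 16 reached 2-fold at the high dose (0 of 16), with a median of 0.23. Compared with the low dose, 10 of the 16 passed 2-fold downwards at the high dose, with Col1a1 at -2.75, Fn1 at -1.83, Col3a1 at -1.82, Col1a2 at -1.67 and Spp1 at -1.48.

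Enzymes and carriers of collagen maturation were also higher at the low dose. Against control, 5 of 10 were at least 2-fold higher at the low dose and 0 lower, with a median of 0.82. The lysyl hydroxylase Plod2 stood at 1.98 and the crosslinking oxidase Loxl2 at 1.97. Loxl1 stood at 1.17, Sparc, a collagen-binding matrix protein, at 1.16, and Pcolce, which promotes procollagen cleavage, at 1.02. With normexp Loxl1 was at 0.70. None reached 2-fold at the high dose (0 of 10), with a median of -0.08.

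**Figure D4:**
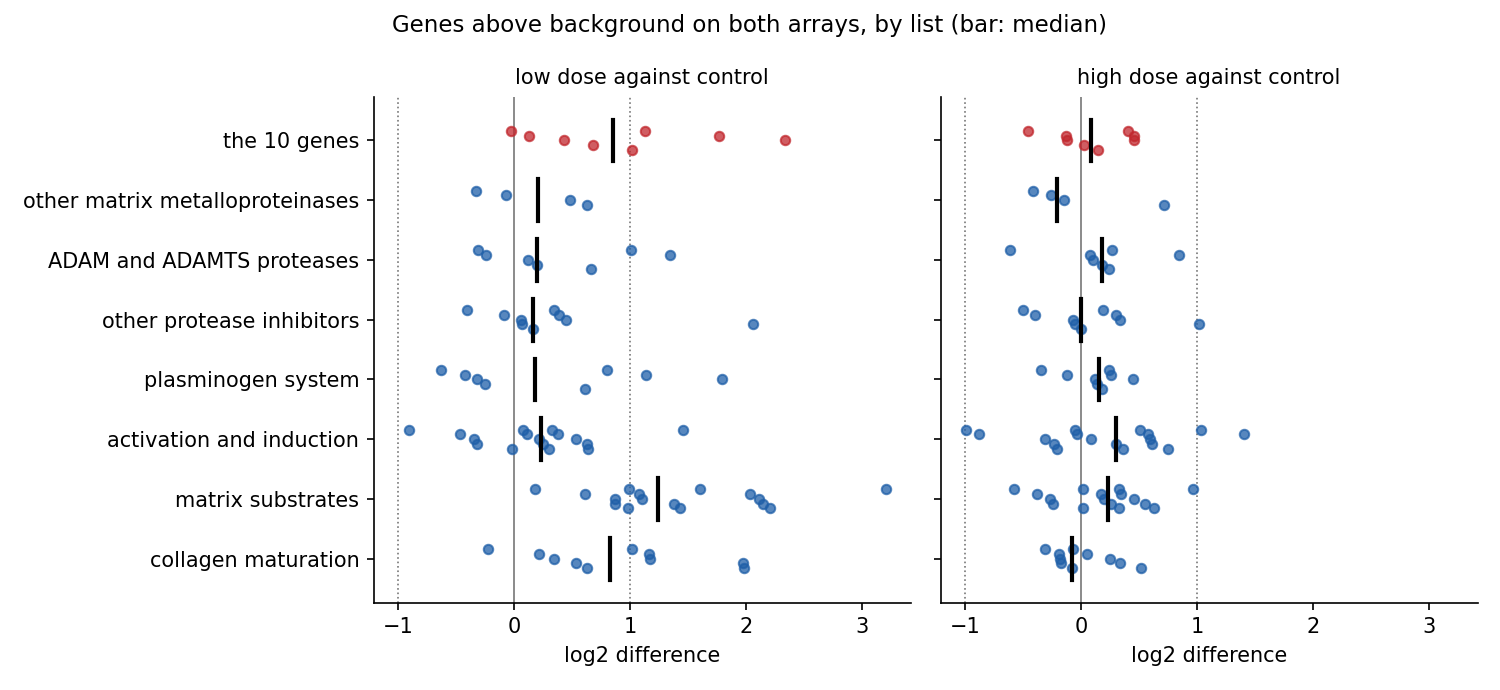
Log2 difference from control at the low dose (left) and high dose (right) for the members (top row) and the genes of 7 related lists above background on both arrays; each point is a gene, bars are medians and dotted lines mark 2-fold. At the low dose the members (median 0.85), the substrates (1.24) and collagen maturation (0.82) stand to the right, and at the high dose no list median exceeds 0.30.

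Markers of other cells differed between the arrays as well. Summed signals take in every gene of a list on the array, also those below background. Of 9 fibroblast markers 7 were above background on all arrays, and the list's summed signal was 3600 in control, 11100 at the low dose and 3990 at the high dose, while Lum and Postn were above background on none. That list shares Dcn, Lum, Col1a1, Col1a2 and Col3a1 with the substrates; outside them, Pdgfra was higher by 1.02, Pdgfrb by 0.60 and Mfap5 by 2.11 at the low dose. At the high dose Pdgfra stood at 0.18 and Pdgfrb at -0.25, but Mfap5 still at 1.96. Mfap5 was dim in control, at 28.5, and with normexp stood at 0.89 at the low dose and 0.77 at the high dose. With normexp Pdgfra stood at 0.94 at the low dose. Of 10 macrophage markers 8 were above background on control and 9 at the low dose, with sums of 2500, 5320 and 2550, to which C1qb gave the most (1270, 2870 and 1190). At the low dose 7 of 8 were above control, 4 of them at least 2-fold (C1qa, C1qb, C1qc and Cd14), while Itgam was at 0.09 and Csf1r below control at -0.28. With normexp C1qc and Cd14 stood at 0.91 and 0.70, short of 2-fold. A second Csf1r probe, above background on all arrays, was higher at the low dose by 0.41, so the Csf1r probes disagree. A second Itgam probe was above background at the low dose alone, at 32.7. Mrc1 was above background on none. Of 8 neutrophil markers, 0 were above background in control, 2 at the low dose and 3 at the high dose, with sums of 92.5, 168 and 174, and Mpo and Elane were above background on none.

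Of 8 adipocyte markers, 5 were above background in control and 6 on each treated array, with sums of 776, 8480 and 3860. Plin1 and Lep were above background on none. Of 6 urothelium markers 2 were above background in control and 4 on each treated array, with sums of 229, 1120 and 794, and Krt5 and Krt20 were above background on none. The Upk1b probe counted gave 70.8, 68.2 and 80.3. A second one, not above background in control, gave 10.3, 398 and 180, so the Upk1b probes disagree and the sums depend on the choice. Principal cell markers, 5 of 5 above background, summed to 15800, 38000 and 24600, mostly from Aqp2 (12200, 30800 and 18800). Scnn1b and Scnn1g, of the same list, were lower than control on both treated arrays, at -0.25 and -0.27 for the low dose and -0.11 and -0.36 for the high dose. Proximal tubule markers summed to 121000, 115000 and 109000, and thick ascending limb markers to 44600, 32500 and 37800. Fibroblast, macrophage, adipocyte, urothelium and principal cell sums thus all had the order of Mmp2 and Timp1, as did the mesothelial and T cell sums given below. Neutrophil, smooth muscle, inner medulla and red cell sums were instead highest at the high dose. For macrophages the high-dose sum of 2550 was close to the 2500 of control, and C1qb was lower at the high dose than in control.

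Markers of inner medulla and papilla also stood higher on the treated arrays. With 6 of 6 above background, their median difference from control was 1.25 at the low dose and 0.89 at the high dose, and 3 were at least 2-fold higher in each comparison. These were Akr1b1 at 3.23 and 2.19, Slc14a2 at 1.69 and 1.68 and Cldn4 at 1.66 and 1.07. Cryab alone was lower, at -0.37 and -0.07, and as the brightest gene it set the list's sums of 15500, 14900 and 16500. Smooth muscle and pericyte markers, 6 of 8 above background in control and without Cnn1 on any array, summed to 679, 1090 and 1140. Of these, Tagln went from 143 in control to 404 and 315 at the low and high dose and Actg2 from 41.1 to 72.0 and 174, while Myh11 differed by -0.01 and 0.36. Endothelial markers, 4 of 6 above background in control, summed to 3590, 3540 and 3280, and podocyte markers to 1740, 1490 and 1430. T cell markers, 2 of 6 above background and without Cd3e or Cd4, summed to 288, 358 and 324. Their order came mainly from Cd3g, at 41.1, 93.4 and 64.7, while Cd3d was nearly equal on the arrays, at 207, 216 and 218. Mesothelial markers, 1 of 4 above background in control, summed to 113, 327 and 140. The higher sums came from Msln, at 24.0, 273 and 71.1. Wt1, also a podocyte marker, was lower than control at -0.42 and -0.30, and Upk3b and Lrrn4 were above background on none. Of 4 haemoglobin and red cell genes 2 were on the array, with sums of 13700, 16700 and 17000. The part of any of these cell types in the differences of the metalloproteinases and inhibitors was not tested.

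Genes nearest in pattern were sought among 9637 named genes above background on all arrays, by distance in the pair of log2 differences from control. For Mmp2 these were Trem2, a receptor of macrophages, at 2.47 and 0.56 for low and high dose, Col3a1 at 2.15 and 0.33, Spp1 at 2.11 and 0.63, Angptl4 at 2.04 and 0.46 and Slpi at 2.06 and 0.34. For Timp1 they were Impdh1, an enzyme of guanine nucleotide synthesis, at 1.79 and 0.47, Sh2b2 at 1.67 and 0.41, Lrg1 at 1.57 and 0.43, Col5a2 at 1.60 and 0.35 and Plod2 at 1.98 and 0.52. Each likeness rests on 3 arrays and so on a pair of values per gene. Mmp7 was above background on 1 array, so its nearest genes could not be sought in this way.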

How the data were processed

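Groups were taken from the sample labels, and each array holds RNA pooled from 4 rats. The deposited scanner files give spot intensity at 532 nm, read with GenePix Pro 6.1.0.4, per the file headers, although Agilent Feature Extraction is the tool named in the submitters' processing notes. The authors' software subtracted a background of 39, 40 and 39 units (control, low dose, high dose), per the file headers. Each spot's signal-to-noise ratio and flag are deposited as a score, and its saturated pixels as a percent, per the file headers. A log2 table deposited by the authors was scaled by a method not given in the sources; all 3 of its columns had a median of 4.77 and a highest value of 15.99, and each correlated best with its own array across probes above background (r of 0.999 or more). A mouse design is named in the header of the high-dose array, but its spot annotation is the same as on the other arrays and its values correlate with theirs, so the rat design was used for it. The image named in the headers also holds another array of the high-dose group, which was not analysed here.

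Control spots, bright spots that the software had not found (6, 5 and 6) and spots above background whose pixel mean and median differed over 1.5-fold (166, 139 and 80) were left out. Net means were averaged over a probe's spots, scaled to an equal 75th percentile (factors 1.14, 0.960 and 0.912), floored at 1 and turned into log2 values with Python 3.11.15 and pandas 2.3.3. The scaling was tested on simulated data. Probes took their names from a RefSeq table (GRCr8), 18355 by accession, 2758 by current symbol and 422 by synonym, and 164 by the file's own symbol; 8668 had none or a placeholder. The files name no build, so no coordinates are given for probes or genes; those of the promoter windows belong to the GRCr8 promoter table alone. A gene was represented by the probe above background on most arrays, then the brightest. With 1 array per group no test was run. The design foresaw Feature Extraction flags, whose place the signal-to-noise ratio took. Alternatives were normexp (limma 3.58.1, offset 50), quantile and median scaling, the authors' table, pixel medians, non-uniform spots kept, all probes, a weak corner of the control array (20 rows by 35 columns) left out, and a mean over probes.

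The members and lists were chosen with earlier results of these data known. All members were named. Of the related lists, up to 5 genes per list and comparison past 2-fold were named by size, besides Plau, Plat, Furin, Bsg, A2m and Timp4 whatever their value and the 5 nearest patterns of Mmp2 and Timp1. Genes with a fold over the lowest signal above background, those of the 4 other metalloproteinases measured, and single markers were named after their values were seen. A further gene that the rule names is not reported here.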

Additional observations from a re-analysis of the deposited data

How the results depend on the processing

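Over the 9 alternatives, the members' median difference kept its sign in each comparison. At the low dose against control, 3 members were at least 2-fold higher with normexp and with the authors' deposited values, 5 with all probes whatever their signal, and 4 otherwise. Between the doses, 3 or 4 passed 2-fold downwards. Of the 8 members above background on all arrays, only Adamts1 crosses the line. Its low-dose difference ranged from 0.81 to 1.03, and its high-dose difference from control turned to -0.21 in the authors' deposited values. With all probes whatever their signal, Mmp7 also enters the counts, at 6.47 for low dose against control and -6.79 between the doses. The normexp correction gave 1.87 for Mmp2 and 1.42 for Timp1 at the low dose. Over all genes, normexp left 136 higher and 20 lower at the low dose in place of 243 and 65, 37 and 2 at the high dose in place of 84 and 15, and 16 and 69 between doses in place of 47 and 150; its added offset shrinks differences of dim genes. With all probes the counts were 949 and 1701, 1046 and 953, and 1598 and 691. At the high dose 29 genes were lower in the authors' deposited values and 31 with non-uniform spots kept. Leaving out a replicate was not run, since each group has 1 array. No paired analysis was possible because each group has 1 array. Signals near background limit what can be said of Mmp9, of Mmp7 on the control and high-dose arrays, and of most other metalloproteinases.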
